A study of Mus musculus with 6 samples.

Results

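The elastic fibre genes described here are 10 genes, Eln, Fbn1, Fbln1, Fbln2, Fbln5, Mfap2, Mfap4, Mfap5, Emilin1 and Efemp2, out of 18019 genes with a row in the deposited table. They were picked by symbol, as known parts of elastic fibres, and each matched 1 row through its NCBI gene ID. All 10 passed the filter on low values (an average of 1 FPKM or more across both groups), as did 11422 genes in all. FPKM counts fragments relative to gene length and to the depth of the library, so that levels of genes of different length can be set side by side.

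RNA came from hearts of wild-type mice, taken 8 weeks after surgery for transverse aortic constriction (TAC), where a narrowed aortic arch puts the left ventricle under pressure load. All animals of both groups had the surgery, so no unloaded heart is in the comparison. In the VNS-TAC group (vagus nerve stimulation, 3 libraries) a virus had delivered the light-gated channel ChR2(H134R), fused to a green fluorescent protein and driven by the ChAT promoter, to the dorsal vagal motor nucleus. The column headers and library names of this group carry the tag X10Hz. In the Ctrl-TAC group (3 libraries) the same kind of virus carried the fluorescent protein without the channel. The labels used here state neither the age nor the sex of the mice. Sample titles gave the groups, since the treatment tag reads VNS throughout. VNS-TAC libraries are numbered as in the table, since its numbers 1 to 3 differ from the library numbers in the labels. VNS-TAC 3 and VNS-TAC 1 stood apart from the other libraries on the first and second principal components of all genes tested (48.0% and 33.9% of the variance), so values are also given without them where that matters.

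Elastic fibres give arteries, valves and the connective tissue around heart muscle their recoil. A core of cross-linked elastin is laid down on a scaffold of fibrillin microfibrils, with fibulins, microfibril-associated proteins and EMILIN at the boundary between the core and the scaffold, and lysyl oxidases join the elastin chains. In the heart and its vessels, smooth muscle cells, fibroblasts and some endothelial cells make these proteins, and the microfibrils also hold latent TGF-beta through its binding proteins.

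In VNS-TAC hearts the elastic fibre genes stood lower on average, but none of the 10 passed the adjusted test (limma with Benjamini-Hochberg adjustment; smallest adjusted p = 0.223), and 0% of all genes tested passed it. The mean was lower in VNS-TAC for 9 of 10 genes, against 61.8% of all genes. The median log2 fold change of the 10 was -0.36, against -0.08 for all genes tested. At an unadjusted p under 0.05, 2 of the 10 were lower (Mfap4 and Fbn1) and 0 higher, where 11.3% of all genes were lower and 3.79% higher. For 3 of 10 genes, Mfap4, Mfap5 and Fbln5, every VNS-TAC value lay under every Ctrl-TAC value, against 17.4% of all genes. The reverse was true of 0 of the 10 and of 8.01% of all genes. The count of 3 was 6 without VNS-TAC 1 (26.9% of all genes) and 5 without Ctrl-TAC 3 (26.1%), and 1, Mfap4, after rescaling by size factors (11.1%). The median of the 10 was -0.16 without VNS-TAC 3 and -0.48 without VNS-TAC 1.

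The genes lie on 8 chromosomes of the mouse genome GRCm38, in the RefSeq annotation. Eln spans chromosome 5 from 134702595 to 134747368 and Emilin1 the same chromosome from 30913387 to 30921279. Fbln2 spans chromosome 6 from 91212460 to 91272540 and Mfap5 the same chromosome from 122513584 to 122529290. Fbn1 lies on chromosome 2 (125300594 to 125506485), Mfap2 on chromosome 4 (141010424 to 141015976) and Mfap4 on chromosome 11 (61485431 to 61488708). Fbln5 lies on chromosome 12 (101746565 to 101819119), Fbln1 on chromosome 15 (85205949 to 85286294) and Efemp2 on chromosome 19 (5473946 to 5482520). Of the 10 spans, that of Eln shares bases (1657) with another annotated gene, the long non-coding RNA Gm30003, which has no row in the table.

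Promoter sequences of 7 of the 10 genes were found in the RefSeq table of GRCm38.p6. Those of 3 genes are shown, because they belong to a scaffold gene and a fibulin gene with lower means and to the gene with a higher mean in VNS-TAC. Each sequence shown runs 5′ to 3′ on the strand of the gene and ends at the last base before the annotated gene. Capitals mark the motifs searched on both strands, namely the GC box GGGCGG, the TATA box TATAAA, the AP-1 motif TGANTCA and the Smad motif CAGACA.
Fbn1 (chr2:125506486-125506688, minus strand): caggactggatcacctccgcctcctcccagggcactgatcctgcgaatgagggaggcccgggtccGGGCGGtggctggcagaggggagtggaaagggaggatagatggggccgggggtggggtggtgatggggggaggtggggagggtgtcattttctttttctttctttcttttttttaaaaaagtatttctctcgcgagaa
Fbln5 (chr12:101819120-101819369, minus strand): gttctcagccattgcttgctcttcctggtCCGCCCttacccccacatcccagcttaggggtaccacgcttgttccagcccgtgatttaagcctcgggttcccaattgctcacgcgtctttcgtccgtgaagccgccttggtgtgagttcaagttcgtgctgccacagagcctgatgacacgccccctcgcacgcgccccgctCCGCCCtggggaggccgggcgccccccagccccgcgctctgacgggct
Mfap2 (chr4:141010174-141010423, plus strand): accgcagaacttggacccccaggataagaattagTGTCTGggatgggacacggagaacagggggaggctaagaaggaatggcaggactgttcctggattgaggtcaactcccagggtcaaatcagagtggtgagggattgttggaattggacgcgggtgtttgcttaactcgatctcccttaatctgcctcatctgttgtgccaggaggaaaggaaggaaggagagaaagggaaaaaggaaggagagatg

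Over the 250 bases before the start in that table, 4 of the 7 promoters (Fbn1, Fbln2, Fbln5 and Efemp2) held a GC box, against 33.0% of 27025 promoters. The Smad motif was in the 3 others (Fbln1, Mfap2 and Emilin1), against 17.1% of all promoters. Neither the TATA box (13% of all promoters) nor the AP-1 motif (6.85%) occurred in any of the 7. The GC boxes and the Smad motifs thus fell in different promoters. For Fbln2 and Emilin1 the whole window, and for Fbn1 all but 203 bases of it, lay inside the annotated gene. These matches describe letters in a window and are not binding sites.

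Levels of the 10 genes in Ctrl-TAC ran from 49.3 ± 5.44 FPKM for Fbln1 to 3.49 ± 1.03 FPKM for Mfap2 (SD, n = 3). Fbln1 and Fbln2 stood at the top with overlapping ranges, and Mfap5, Mfap4 and Eln followed, each overlapping the next. Fbln5, Emilin1, Fbn1 and Efemp2 came below, again each overlapping the next, and Mfap2 stood apart at the bottom. Summed over the 10 genes, the Ctrl-TAC libraries held 260, 258 and 239 FPKM, and VNS-TAC 1, 2 and 3 held 222, 202 and 120 FPKM. All 3 VNS-TAC sums lay under the lowest Ctrl-TAC sum, and VNS-TAC 3 lay far below the other two. Depth estimated from the spacing of low values was 13680000 to 16000000 fragments per library, which puts about 42 to 118 fragments behind each value of Mfap2 and about 112 to 5002 behind each value of the other genes.

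**Figure D1:**
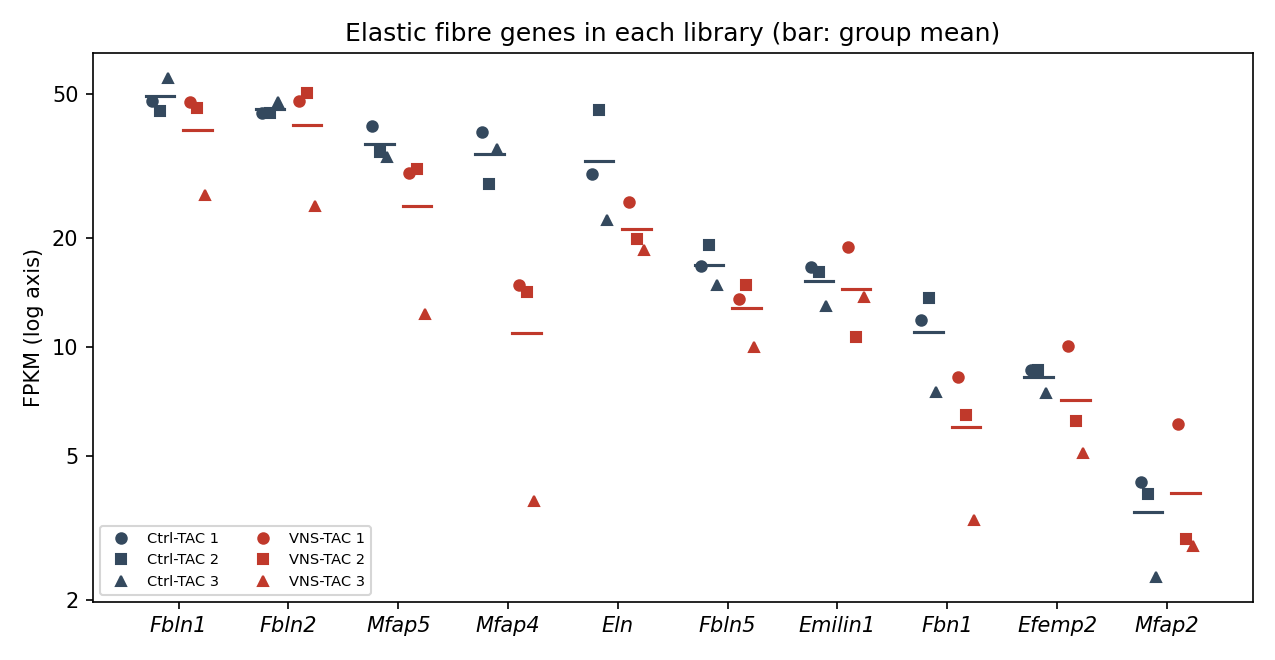
Level of each elastic fibre gene in the 6 libraries, in FPKM on a log axis, with genes ordered by their Ctrl-TAC mean. Points are libraries and bars are group means; for Mfap4 all 3 VNS-TAC points (3.75 to 14.8) lie below the Ctrl-TAC points (28.2 to 39.1), and VNS-TAC 3 is the lowest point for 8 of 10 genes.

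Eln encodes tropoelastin, the building block of the elastic core. It had 25.2, 19.8 and 18.5 FPKM in VNS-TAC 1, 2 and 3, against 30.1, 45.2 and 22.5 FPKM in Ctrl-TAC 1, 2 and 3. The groups overlapped, since VNS-TAC 1 lay above Ctrl-TAC 3, and the spread among controls was wide. The group means were 21.2 ± 3.55 and 32.6 ± 11.6 FPKM (SD, n = 3), and the log2 fold change was -0.55 ± 0.25 (SE; limma adjusted p = 0.346). Fold changes here are differences of log2(FPKM + 1). Ctrl-TAC 2 weighed on this value, which was -0.30 without it. That library was also the highest in Myh11, Acta2, Tagln and Cnn1, contractile genes of smooth muscle, the cells that make most of the elastin of arteries.

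Acta2, smooth muscle actin, was at 81.4 FPKM in Ctrl-TAC 2, against 31.5 and 42.9 FPKM in Ctrl-TAC 1 and 3. Its VNS-TAC values of 51.6, 26.8 and 23.3 FPKM overlapped them. Myh11, smooth muscle myosin, was at 16.7 FPKM in Ctrl-TAC 2, against 6.77 and 7.68 FPKM in the other controls and 5.34, 6.48 and 6.66 FPKM in VNS-TAC. Tagln was at 54.9 FPKM and Cnn1 at 9.98 FPKM in Ctrl-TAC 2, and both were named after their values were seen. The mean log2 level of 6 smooth muscle markers was 4.58 in Ctrl-TAC 2, 3.51 and 3.89 in Ctrl-TAC 1 and 3, and 3.22 to 3.51 in VNS-TAC. Less that mean, Eln lay at 1.11 ± 0.07 in VNS-TAC and 1.02 ± 0.40 in Ctrl-TAC (SD, n = 3), with overlapping ranges. The part of smooth muscle content in the Eln difference was not tested, and in bulk tissue fewer cells of a type and less RNA per cell cannot be told apart.

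**Figure D2:**
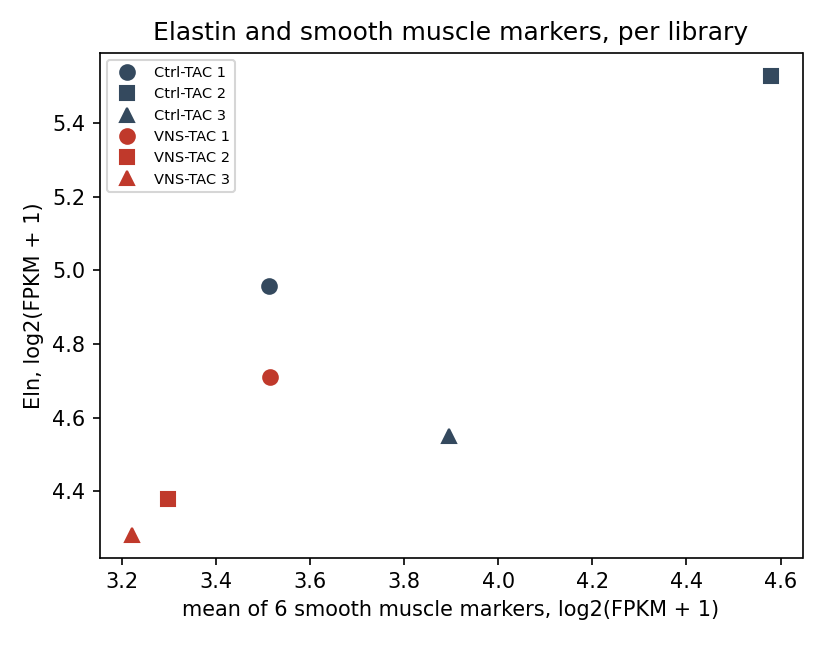
Eln against the mean of 6 smooth muscle markers, both as log2(FPKM + 1), 1 point per library. Ctrl-TAC 2 stands apart at the top right (4.58 on the horizontal axis), and VNS-TAC 2 and VNS-TAC 3 are lowest on both axes.

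Fbn1 encodes fibrillin-1, the main protein of the microfibril scaffold. Its values were 8.27, 6.46 and 3.32 FPKM in VNS-TAC 1, 2 and 3 and 11.8, 13.7 and 7.52 FPKM in Ctrl-TAC 1, 2 and 3. VNS-TAC 1 lay just above Ctrl-TAC 3, so the groups overlapped. The log2 fold change was -0.81 ± 0.32 (SE; limma adjusted p = 0.302), -0.49 without VNS-TAC 3 and -1.04 without VNS-TAC 1. Fbn2, which encodes the fibrillin of the developing embryo, was under the filter at 0.12 to 0.13 FPKM in VNS-TAC and 0.15 to 0.22 FPKM in Ctrl-TAC.

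Mfap4, a microfibril-associated protein with a fibrinogen-like domain that binds elastin and fibrillin, differed most of the 10. It had 14.8, 14.2 and 3.75 FPKM in VNS-TAC 1, 2 and 3, against 39.1, 28.2 and 35.2 FPKM in Ctrl-TAC 1, 2 and 3. Every VNS-TAC library was below the lowest control, and the VNS-TAC mean was 31.9% of the Ctrl-TAC mean. The log2 fold change was -1.74 ± 0.44 (SE; unadjusted p = 0.0051, limma adjusted p = 0.223). It ran from -2.04 to -1.17 over the other settings and stayed lower in all of them. With array weights Mfap4 passed the adjusted test (limma adjusted p = 0.0142, in a range of 0.0142 to 0.697 over the alternatives). In that setting 1016 of 11422 genes passed, against 0 in the main fit, so passing there is not particular to Mfap4. VNS-TAC 2 had a weight of 2.82 in it, and VNS-TAC 1 and 3 had 0.246 and 0.247.

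Mfap4 also took a smaller share of the summed FPKM of the 10 genes. The share was 5.60% ± 2.15 in VNS-TAC and 13.6% ± 2.30 in Ctrl-TAC (SD, n = 3), with no overlap. Relative to the mean of 10 fibroblast markers in the same library, its log2 level lay at -1.37 ± 0.62 in VNS-TAC and at -0.29 ± 0.25 in Ctrl-TAC, again with no overlap. No other of the 10 genes was lower without overlap on that relative scale. On it, Fbln2, Fbln5, Mfap2 and Efemp2 lay higher in VNS-TAC without overlap, by 0.44, 0.27, 0.76 and 0.42. The fibroblast mean was itself lower in VNS-TAC without overlap, at 4.76 ± 0.36 against 5.41 ± 0.03 (SD, n = 3). A gene with equal levels in both groups would therefore lie higher on this scale. The share of all genes without overlap on it was not taken, so these counts have no background. The 10 markers were lowered unequally, with log2 fold changes from -2.11 for Col15a1 to -0.15 for Tcf21, and -0.21 for Pdgfra. Values on this scale therefore depend on which markers are averaged, and do not show a rise relative to fibroblast number. Mfap4 was set apart here, and Col15a1 named, after their values were seen, so these figures are a description.

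Mfap5 and Mfap2 encode the microfibril-associated glycoproteins MAGP-2 and MAGP-1, small proteins that coat fibrillin. Mfap5 was at 30.1, 31.0 and 12.3 FPKM in VNS-TAC hearts, against 40.8, 34.6 and 33.4 FPKM in Ctrl-TAC. The groups did not overlap, but VNS-TAC 1 and 2 lay close to the lowest control. The log2 fold change of -0.65 ± 0.33 (SE; limma adjusted p = 0.380) was -0.24 without VNS-TAC 3 and -0.85 without VNS-TAC 1. Mfap2 was at 6.10, 2.95 and 2.81 FPKM in VNS-TAC hearts, against 4.24, 3.91 and 2.31 FPKM in Ctrl-TAC. Its values overlapped on both sides, with the highest of the 6 in VNS-TAC 1 and the lowest in Ctrl-TAC 3. The log2 fold change of Mfap2, 0.11 ± 0.29 (SE; limma adjusted p = 0.868), was -0.18 without VNS-TAC 1 and -0.10 without Ctrl-TAC 3.

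**Figure D3:**
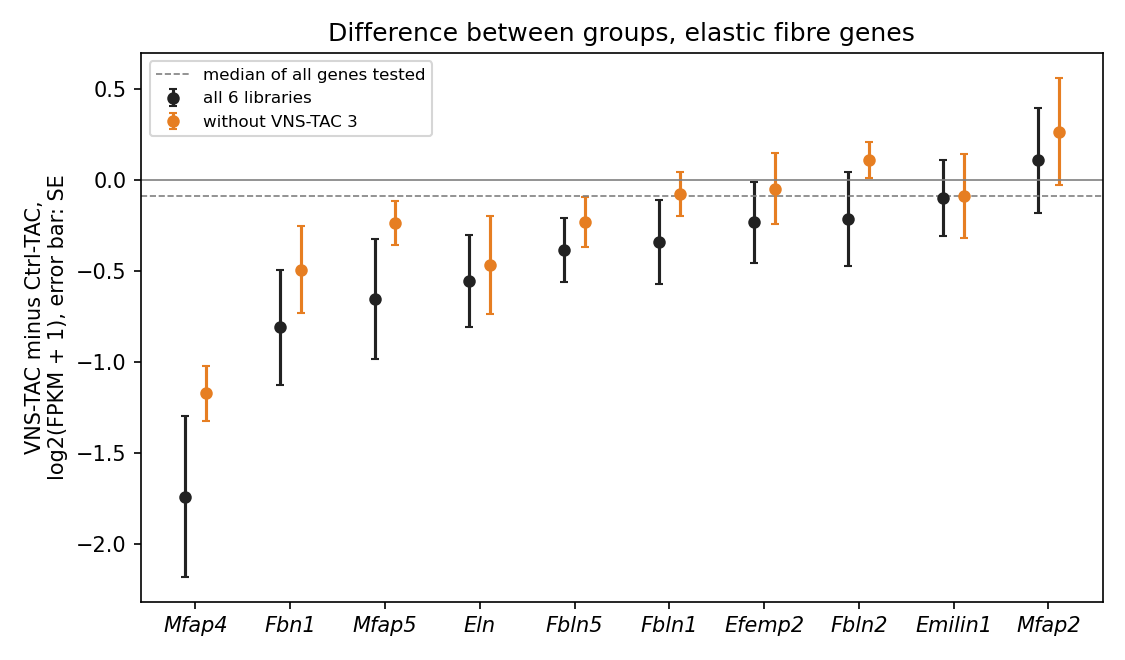
Difference of VNS-TAC and Ctrl-TAC for each elastic fibre gene on the log2(FPKM + 1) scale with its standard error, over all 6 libraries (black) and without VNS-TAC 3 (orange). Mfap4 is farthest below 0 in both (-1.74 and -1.17), Fbln2 changes side (-0.21 and 0.11), and the dashed line is the median of all genes tested (-0.08).

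Fibulins bridge elastin and the microfibrils. Fbln5, which encodes fibulin-5 and tethers elastin to cell surface integrins, was at 13.6, 14.8 and 9.99 FPKM in VNS-TAC hearts, against 16.7, 19.1 and 14.8 FPKM in Ctrl-TAC. The groups were separate by the smallest of margins, 14.77 FPKM in VNS-TAC 2 against 14.79 FPKM in Ctrl-TAC 3. The log2 fold change was -0.38 ± 0.17 (SE; limma adjusted p = 0.346), -0.23 without VNS-TAC 3 and -0.43 without VNS-TAC 1. Efemp2 encodes fibulin-4, which brings lysyl oxidase to elastin, and was at 10.02, 6.23 and 5.07 FPKM in VNS-TAC against 8.61, 8.62 and 7.46 FPKM in Ctrl-TAC. Its highest and its lowest value were both in VNS-TAC (log2 fold change -0.23 ± 0.22, limma adjusted p = 0.615). That value was -0.046 without VNS-TAC 3 and -0.48 without VNS-TAC 1.

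Fbln1 and Fbln2, the most abundant of the 10, differed from controls mainly in 1 library. Fbln1, found in basement membranes and elastic fibres, was at 47.5, 45.6 and 26.3 FPKM in VNS-TAC against 47.8, 44.8 and 55.3 FPKM in Ctrl-TAC. Fbln2, a fibulin of vessel walls and valves, was at 47.8, 50.4 and 24.5 FPKM against 44.2, 44.4 and 47.5 FPKM. In both, VNS-TAC 1 and 2 lay among or above the controls and VNS-TAC 3 far below them. The log2 fold changes were -0.34 ± 0.23 for Fbln1 and -0.21 ± 0.26 for Fbln2 (SE; limma adjusted p = 0.488 and 0.696). Without VNS-TAC 3 they were -0.07 and 0.11, and without VNS-TAC 1 they were -0.49 and -0.36.

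Emilin1 encodes a glycoprotein at the interface of elastin and microfibrils that also restrains the maturation of TGF-beta. It was at 18.8, 10.7 and 13.7 FPKM in VNS-TAC hearts, against 16.6, 16.1 and 12.9 FPKM in Ctrl-TAC. The highest and the lowest of the 6 values were both in VNS-TAC, and the log2 fold change was -0.10 ± 0.21 (SE; limma adjusted p = 0.830), turning to 0.084 without VNS-TAC 2.

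The 10 genes thus differed in which libraries were low. VNS-TAC 3 was the lowest library for 8 of 10 genes, against 26.5% of all genes tested. Ctrl-TAC 2 was the highest for 3 of 10 (Eln, Fbn1 and Fbln5), against 19.7% of all genes. VNS-TAC 1 was the highest for Mfap2, Emilin1 and Efemp2. Averaged over the 10 genes, the log2 level less the Ctrl-TAC mean was -0.10, -0.38 and -0.99 in VNS-TAC 1, 2 and 3, and the controls ran from -0.17 to 0.08. GC content was also set against the deviation of each gene from its mean log2 level over the 6 libraries. The Spearman correlation across genes was 0.549 in VNS-TAC 1, against -0.418 to 0.02 in the others. All libraries share that mean, so their correlations are not independent. The transcripts of Mfap2 and Emilin1 have 59.6% and 61.1% GC, the highest of the 10, and that of Fbln5 has 46.9%, the lowest. Efemp2, also highest in VNS-TAC 1, has 54.1%. Eln has 58.8%, yet lay at -0.30 from the Ctrl-TAC mean in VNS-TAC 1. After removal of the GC trend, VNS-TAC 1 was still the highest library for Mfap2, Emilin1 and Efemp2 (log2 levels of 2.73, 4.19 and 3.41). The part of GC content in these values was not tested. With the GC trend of each library removed, Mfap4 alone of the 10 had groups that did not overlap, a share near the 12.5% of all genes lower without overlap on that scale, and 9 of 10 means were lower. In that setting 3 of the 10 (Mfap4, Eln and Fbn1) had an unadjusted limma p under 0.05, where 1625 of 11422 genes did in either direction.

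**Figure D4:**
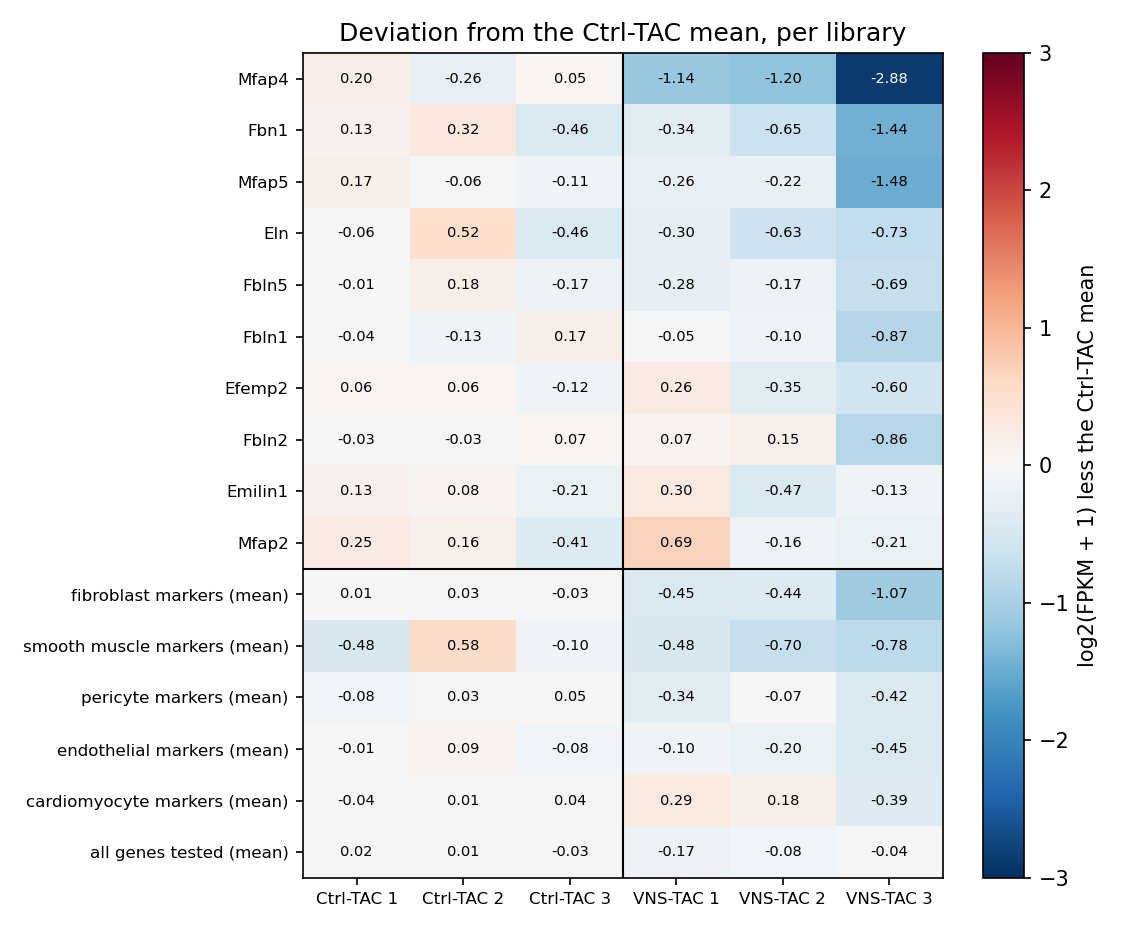
Deviation of each library from the Ctrl-TAC mean, as a difference of log2(FPKM + 1), for the 10 elastic fibre genes and for the mean of marker lists of 5 cell types and of all genes tested. Blue is lower; Mfap4 reaches -2.88 in VNS-TAC 3, and the fibroblast markers lie at -0.45, -0.44 and -1.07 in VNS-TAC 1, 2 and 3.

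Libraries and cell types set the frame for these values. Cardiomyocyte markers such as Myh6 (3212 to 6324 FPKM) and Tnnt2 (7014 to 15154 FPKM) were abundant in every library, as the heart label says. All 10 fibroblast markers had lower means in VNS-TAC, 5 of them without overlap, where 61.8% and 17.4% of all genes did, and none passed the adjusted test (smallest adjusted p = 0.232). Their summed level was 840 to 1235 FPKM in VNS-TAC and 1241 to 1248 in Ctrl-TAC, and none was at 0 in any library. Dpt was at 47.0, 41.6 and 16.8 FPKM in VNS-TAC against 61.8, 68.2 and 49.5 FPKM. Pdgfra, the receptor that defines cardiac fibroblasts, was at 5.34, 7.26 and 8.80 FPKM in VNS-TAC, highest in VNS-TAC 3, against 7.54 to 9.05 FPKM in Ctrl-TAC. Tcf21, another defining marker, was at 8.64, 7.84 and 7.12 FPKM against 7.60 to 9.89 FPKM. All 6 smooth muscle markers had lower means as well, with summed levels of 77.5 to 133 FPKM against 118 to 227 FPKM. Means were lower for 6 of 6 pericyte, 5 of 6 endothelial, 3 of 6 cardiomyocyte, 3 of 5 adventitial fibroblast, 2 of 3 mesothelial, 3 of 3 adipocyte, 1 of 1 chondrocyte and 4 of 5 atrial markers tested. For the atrial markers the median log2 fold change was only -0.03. Their summed level varied widely among controls, from 3050 FPKM in Ctrl-TAC 2 to 9819 FPKM in Ctrl-TAC 3, and from 3838 to 9078 FPKM in VNS-TAC. Nppa was the largest part of these sums, at 2645 to 7691 FPKM in VNS-TAC and 2567 to 6992 FPKM in Ctrl-TAC. Myl4 varied less in VNS-TAC, at 486 to 554 FPKM, against 214 to 1323 FPKM in Ctrl-TAC. Myl7 was at 528 to 707 FPKM against 195 to 1005 FPKM. These 3 were named after their values were seen. Neutrophil markers went the other way, with 4 of 4 tested genes higher and without overlap, against 8.01% of all genes. Their median log2 fold change was 2.88, though none passed the adjusted test (smallest limma adjusted p = 0.0508). The part of any of these cell types in the values of the elastic fibre genes was not tested.

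Other genes of the elastic fibre pathway were taken from 6 lists of 47 genes, of which 35 passed the filter. Of these 35, 27 had lower means in VNS-TAC, against 61.8% of all genes. At an unadjusted p under 0.05, 13 were lower and 0 higher, against 11.3% and 3.79% of all genes, and none passed the adjusted test (smallest adjusted p = 0.19, Mmp2). The 13 became 8 without Ctrl-TAC 2 and 21 without VNS-TAC 1, and the count over all genes, 1719 in either direction, moved the same way, to 766 and 2515. For 15 of the 35 genes the VNS-TAC values all lay below the Ctrl-TAC values, against 17.4% of all genes. The median log2 fold change was -0.32, against -0.08 over all genes.

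Of 9 tested genes for proteins that bind microfibrils, 8 were lower and 7 of them did not overlap (61.8% and 17.4% of all genes), with a median log2 fold change of -0.58. Ltbp4, the latent TGF-beta binding protein that elastic fibre assembly needs, was the most abundant gene of the list, at 114, 104 and 40.7 FPKM in VNS-TAC hearts, against 154, 152 and 173 FPKM in Ctrl-TAC. Every VNS-TAC value was below the controls. The log2 fold change was -1.01 ± 0.36 (SE; limma adjusted p = 0.275), or -0.54 without VNS-TAC 3 and -1.27 without VNS-TAC 1. Ltbp2, a relative that competes for fibulin-5, was at 2.01, 3.50 and 0.89 FPKM against 6.24, 6.09 and 4.26 FPKM, with a log2 fold change of -1.13 ± 0.31 (SE; limma adjusted p = 0.236). Ltbp1 and Ltbp3, which store latent TGF-beta in the matrix, also had separate groups, with log2 fold changes of -0.58 ± 0.16 and -0.36 ± 0.13 (SE; limma adjusted p = 0.243 and 0.273). Adamtsl2, named after its values were seen, binds fibrillin-1 and was at 7.07, 10.3 and 1.94 FPKM against 20.2, 18.9 and 13.7 FPKM. All 3 of its VNS-TAC values lay below the controls.

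Cross-linking enzymes were less uniform, with 3 of 4 tested genes lower, against 61.8% of all genes. Loxl1, the lysyl oxidase most tied to elastic fibres, was the most abundant, at 27.3, 15.8 and 9.53 FPKM in VNS-TAC hearts, against 26.7, 27.1 and 18.6 FPKM in Ctrl-TAC. VNS-TAC 1 lay just above the highest control. The log2 fold change of -0.54 ± 0.34 (SE; limma adjusted p = 0.469) was -0.19 without VNS-TAC 3 and -0.90 without VNS-TAC 1. Loxl2 was at 6.65, 3.79 and 1.29 FPKM against 8.32, 8.82 and 5.59 FPKM, and overlapped. Loxl3 did not overlap, at 2.39, 2.27 and 1.93 FPKM against 3.78, 3.46 and 2.77 FPKM (limma adjusted p = 0.264). Lox itself went the other way in VNS-TAC 3, at 0.89, 1.59 and 4.78 FPKM against 1.68, 2.57 and 0.97 FPKM, so that its log2 fold change of 0.20 ± 0.41 (SE; limma adjusted p = 0.832) was -0.27 without that library. The library with the least Fbn1, Mfap4 and Loxl1 therefore held the most Lox.

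Further family members were lower for 6 of 7 tested genes, against 61.8% of all genes, with a median log2 fold change of -0.29. Mfap3l was at 0.56, 1.17 and 0.61 FPKM against 1.31, 1.78 and 1.29 FPKM, and Mmrn2, an endothelial relative of the EMILINs, at 15.8, 12.8 and 11.9 FPKM against 18.2, 17.1 and 15.2 FPKM. The groups were separate for Mfap3l and overlapped for Mmrn2. Genes of the elastin-binding protein complex, which escorts tropoelastin, differed little. The log2 fold changes were -0.19 ± 0.19 for Glb1 and -0.05 ± 0.12 for Neu1 (SE; limma adjusted p = 0.632 and 0.869). These are RNA levels per gene, which neither separate transcript forms nor measure the complex itself. The log2 fold change of Glb1 was -0.0083 without VNS-TAC 3 and -0.29 without VNS-TAC 1.

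Of the elastin-degrading proteases, 5 of 9 passed the filter and 3 of those 5 were lower, a share near the 61.8% of all genes. Mmp2, a gelatinase of fibroblasts that can cleave elastin, was at 28.1, 21.5 and 19.2 FPKM in VNS-TAC hearts, against 42.9, 37.3 and 40.8 FPKM in Ctrl-TAC. All VNS-TAC values of Mmp2 were below the controls, and the log2 fold change was -0.80 ± 0.16 (SE; limma adjusted p = 0.19). Ctsk, cathepsin K, likewise did not overlap, at 4.31, 3.19 and 2.57 FPKM against 7.03, 5.33 and 6.58 FPKM (limma adjusted p = 0.214). Ctsl, Mmp14 and Mmp9, and Itgb3 and Itgb5 among the integrins, were named after their values were seen. Ctsl, cathepsin L, had a higher mean in VNS-TAC through VNS-TAC 3, at 92.5, 145 and 353 FPKM against 118, 116 and 100.1 FPKM, and its log2 fold change of 0.59 ± 0.43 (SE; limma adjusted p = 0.520) was 0.062 without that library. Mmp14, a membrane-bound protease that activates Mmp2, was at 11.3, 7.95 and 14.3 FPKM against 9.29, 10.5 and 5.73 FPKM, and overlapped. Mmp9, the other gelatinase, was under the filter at 1.0, 0.60 and 1.08 FPKM against 0.34, 0.38 and 0.29 FPKM, with all 3 VNS-TAC values above the controls.

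Of the integrins that bind the RGD sites of fibrillin-1 and fibulin-5, 5 of 7 were lower, against 61.8% of all genes. Itgb1 was at 51.8, 66.8 and 54.0 FPKM against 93.8, 102.7 and 80.8 FPKM, and Itgav at 1.85, 3.25 and 3.43 FPKM against 4.20, 4.64 and 4.94 FPKM. Neither overlapped between the groups (limma adjusted p = 0.197 and 0.264). Itgb3 and Itgb5 had higher means in VNS-TAC, with overlap and with their highest values in VNS-TAC 3. Itgb3 was at 1.06, 1.0 and 2.70 FPKM against 0.80, 1.03 and 0.92 FPKM. Itgb5 was at 40.8, 51.1 and 85.1 FPKM against 58.8, 51.1 and 50.5 FPKM, and its log2 fold change of 0.07 was -0.22 without VNS-TAC 3 and -0.0006 after rescaling to the same FPKM sum.

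**Figure D5:**
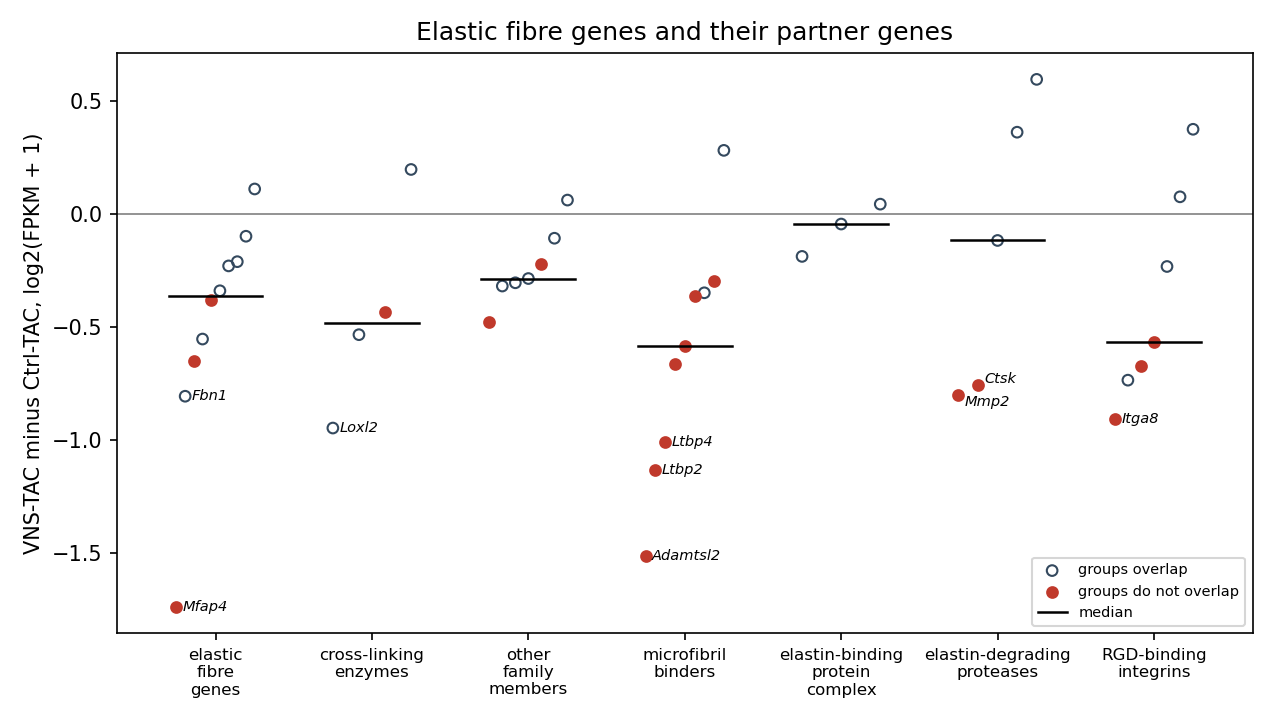
Difference of VNS-TAC and Ctrl-TAC, as log2(FPKM + 1), for the 10 elastic fibre genes and for the tested genes of 6 partner lists. Each point is a gene, filled red where the groups do not overlap, with the list median as a line and names at points far below 0; the microfibril binders hold 7 filled points of 9, and the elastic fibre genes 3 of 10.

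Across all genes outside the 10, the levels most like the mean of the elastic fibre genes over the 6 libraries were those of Adamtsl5, Loxl2, 2410004B18Rik, Arap1 and Nes, with Pearson correlations of 0.995 to 0.998. Over the 5 libraries without VNS-TAC 3 the correlations of these genes were 0.974 to 0.994. Adamtsl5 was at 49.8, 43.1 and 31.2 FPKM in VNS-TAC hearts, against 54.1, 53.5 and 48.7 FPKM in Ctrl-TAC, with VNS-TAC 1 among the controls. Among the 10 genes themselves, pairs ranged from 0.025 (Fbln2 with Emilin1) to 0.952 (Fbn1 with Fbln5). Fbln1 with Fbln2 (0.946) and Mfap4 with Mfap5 (0.939) were also close. These correlations are descriptions over the same 6 libraries, among which VNS-TAC 3 stood apart.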

How the data were processed

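The deposited table holds FPKM values, per the file headers, for 6 libraries of poly(A)-selected heart RNA. The submitters' processing notes list HISAT, featureCounts 1.5.0-p3, DESeq 1.8.3 and the build GRCm38 but no role for any. Neither the annotation nor the strand setting and counting options are stated there. NCBI gene IDs were matched to symbols in RefSeq (17890 of 18019). Values were analysed as log2(FPKM + 1), which understates changes of low genes. The 11422 genes averaging 1 FPKM or more were compared with limma 3.58.1 in R 4.3.3 (intensity trend, 2-sided, Benjamini-Hochberg, threshold 0.05), after a test on simulated data. Lists and figures were made in Python 3.11.15 (pandas 2.3.3, matplotlib 3.10.9). The 10 genes and the lists were chosen with earlier results of these data known. Named are the 10 genes, the 2 genes of each partner list with the smallest p, Lox, Fbn2, Loxl1, Ltbp1 to Ltbp4, Pdgfra, Tcf21, Dpt, Myh11, Acta2, and the 5 genes most correlated with the mean of the 10. Alternatives were other pseudocounts, filters, scalings and variance models, GC and length trends removed, and each library left out. FPKM carry no depth, so depth was estimated from the spacing of low values of short genes and used in no test, and fragments per value use GENCODE M21 exon lengths. Nothing in the labels says that libraries came from separate animals, so p-values measure the spread between libraries.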

Additional observations from a re-analysis of the deposited data

How the results depend on the processing

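No paired analysis was possible because it is unsettled which labelled sample each VNS-TAC column holds, so a replicate block was not run. The sample titles also number samples within each group only, and do not state that equal numbers mark pairs. Among the 10 elastic fibre genes, 8 to 10 had lower means under every alternative and their median log2 fold change ran from -0.48 to -0.16, with the first value without VNS-TAC 1 and the last without VNS-TAC 3. None of the 10 passed the adjusted test except with array weights, where 1016 of 11422 genes passed. The 2 were Mfap4 and Fbn1, the latter at -0.77 with a limma adjusted p of 0.0446. The count with separate groups was 1 with size factors or the GC trend removed (11.1% and 12.5% of all genes). It was 2 with quantile normalization or the length trend removed (10.4% and 11.4%). It was 6 after rescaling to the same FPKM sum (24.5%), and 3 to 6 with a library left out (19.7% to 28.4%). The count at an unadjusted p under 0.05 was 1 with size factors, quantile normalization or the length trend removed (1652 to 1700 of all 11422 genes). It was 3 with the GC trend removed (1625 of all genes). It was 4 with the same FPKM sum (1980 of all genes), 5 with array weights (3441), and 1 to 5 with a library left out (766 to 2515). Over all genes, 1 passed the adjusted test when only genes averaging 5 FPKM were kept, 2 with size factors, quantile normalization or the GC trend removed, 1016 with array weights and 0 to 3 with a library left out. The count at an unadjusted p under 0.05 was 3441 with array weights and 766 to 2515 with a library left out. Of the partner genes, 16 were lower and 7 had an unadjusted p under 0.05 with the filter at 5 FPKM, where 21 were tested, 22 had one with array weights, and 8 to 21 with a library left out. Signs turned for 7 of the genes named. Fbln2 was 0.083 with array weights, and -0.39 to 0.11 with a library left out (0.11 without VNS-TAC 3). Emilin1 was -0.30 to 0.084 with a library left out (0.084 without VNS-TAC 2). Mfap2 was -0.20 with array weights and -0.18 to 0.27 with a library left out (-0.18 without VNS-TAC 1, -0.10 without Ctrl-TAC 3). Lox was -0.0485 with array weights and -0.27 to 0.54 with a library left out (-0.27 without VNS-TAC 3, -0.02 without Ctrl-TAC 3). Neu1 was 0.042 with size factors, 0.072 with quantile normalization, 0.021 with array weights and 0.0028 with the length trend removed. Mmp14 was -0.0493 with array weights. Itgb5 was -0.0006 with the same FPKM sum, -0.0658 with array weights and -0.22 to 0.30 with a library left out (-0.22 without VNS-TAC 3). Rescaling moved the median of all genes from -0.08 to 0.01 (quantile normalization) and to -0.15 (same FPKM sum). The cause of these changes was not tested.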
